A study of Caenorhabditis elegans with 6 samples.

Results

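The genes described here act at the start of autophagy in Caenorhabditis elegans. They encode the UNC-51 kinase complex (unc-51, atg-13, epg-9 and epg-7), the membrane and lipid supply proteins ATG-9, ATG-2 and ATG-18, and the VPS-34 lipid kinase complex (vps-34, bec-1 and epg-8). They were chosen by name from the deposited table of 46739 features, and 9 of the 10 names have a row. No row is listed as epg-7. A row listed as atg-11, known as another name of that gene, is given beside the 9 genes and is not counted with them. Its RPKM values rest on a length of 4422 bases, against 4501 bases of annotated epg-7 exons, and its identity was not tested further. The samples were whole wild-type worms of the strain N2 at the L4 larval stage, all kept at 20 °C on HT115 bacteria and under RNA interference (RNAi) through the whole of development. Such bacteria, taken in as food, carry double-stranded RNA against the gene to be silenced. Sequencing covered polyadenylated RNA, in 3 libraries of worms on an empty vector without a worm target, called the controls here, and in 3 libraries of worms on the vector against rab-11.1, called the RNAi group. RAB-11.1 is a small GTPase that acts at recycling endosomes, and the comparison asks which transcripts change when its gene is targeted.

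Autophagy encloses part of the cytoplasm in a double membrane, the autophagosome, and delivers it to the lysosome. When nutrients are short or cargo accumulates, the UNC-51 complex (the ULK kinase complex of mammals) is activated and starts the process. ATG-9 vesicles supply membrane, ATG-2 transfers lipid to the growing sheet, and the VPS-34 complex makes phosphatidylinositol 3-phosphate (PI3P), a lipid mark that recruits ATG-18. In worms these genes are needed for the removal of protein aggregates in embryos, for survival of starvation and for the long life of several mutants.

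The libraries held 22946375 to 30183162 reads, a depth solved from the spacing of low RPKM values, and levels are in RPKM, which scales the reads of a gene to the length of its transcript and to the depth of the library. The target itself, rab-11.1, was at 411.1, 398.2 and 409.5 RPKM in the controls. In RNAi replicates 1, 2 and 3 it was at 151.3, 137.8 and 632.6 RPKM. The library labelled RNAi replicate 3 thus goes against its label for the target. Some other genes in that library followed its group. The gene rab-11.2, low in all libraries, was at 0, 0.136 and 0.200 RPKM in the controls and at 1.96, 2.74 and 2.06 RPKM in RNAi replicates 1, 2 and 3. The autophagy receptor gene sqst-1 was at 32.2, 42.5 and 33.9 RPKM against 136.6, 183.9 and 124.3 RPKM. Why the target was not low there was not tested. Replicate 2 stood apart in both groups. The summed level of 12 germline marker genes was 482.9 RPKM there against 779.2 and 842.1 RPKM in the other control libraries, and 368.1 RPKM against 593.4 and 649.2 RPKM in the other RNAi libraries. The labels call the libraries biological replicates but do not name separate cultures or days, so p-values measure the spread between these libraries.

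All 9 genes had a higher mean in the RNAi group, by 1.15-fold to 1.78-fold. By limma, 5 of the 9 rose at an adjusted p under 0.05 (atg-13, atg-18, bec-1, vps-34 and epg-8) and 0 fell, where 7.93% of the 13833 features tested rose and 1.07% fell. The 3 genes of the VPS-34 complex chosen here all rose, as did 1 of 3 in the UNC-51 complex and 1 of 3 in the ATG-9, ATG-2 and ATG-18 group. A further subunit gene of the VPS-34 complex, vps-15, is on another list and did not pass (1.16-fold, limma adjusted p = 0.162). The median log2 fold change of the 9 genes was 0.57, and that of all features tested was 0.09. In 8 of the 9 genes the lowest RNAi library lay above the highest control library, as it did for 27.4% of the features tested, and epg-9 was the exception. None lay wholly below, as 6.53% of all features did. The calls depend on single libraries. Without control replicate 2 the same 5 rose (background 6.84%). Without the library labelled RNAi replicate 3, 4 of 9 rose (background 4.17%), atg-13 being lost at an adjusted p of 0.0562, with log2 fold changes of 0.22 to 0.88 over the 9 genes. The 4 were atg-18 (adjusted p = 0.0189), bec-1 (0.0255), vps-34 (0.0323) and epg-8 (0.0382), and the same 4 rose without RNAi replicate 2 (background 4.45%). Without control replicate 1, control replicate 3 or RNAi replicate 1, limma called 0 of 9 (background 2.34%, 1.93% and 2.66%). The lowest adjusted p values of the 9 genes there were 0.0587, 0.063 and 0.0539, and 6, 5 and 6 of the 9 had an unadjusted p under 0.05. How many of all features did so in those fits was not counted. In the chosen fit of all 6 libraries, 21.6% of the features tested rose at an unadjusted limma p under 0.05. With the replicate number as a block 7 rose (background 16.5%), the additional genes being atg-9 (adjusted p = 0.0257) and epg-9 (adjusted p = 0.00617).

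**Figure D1:**
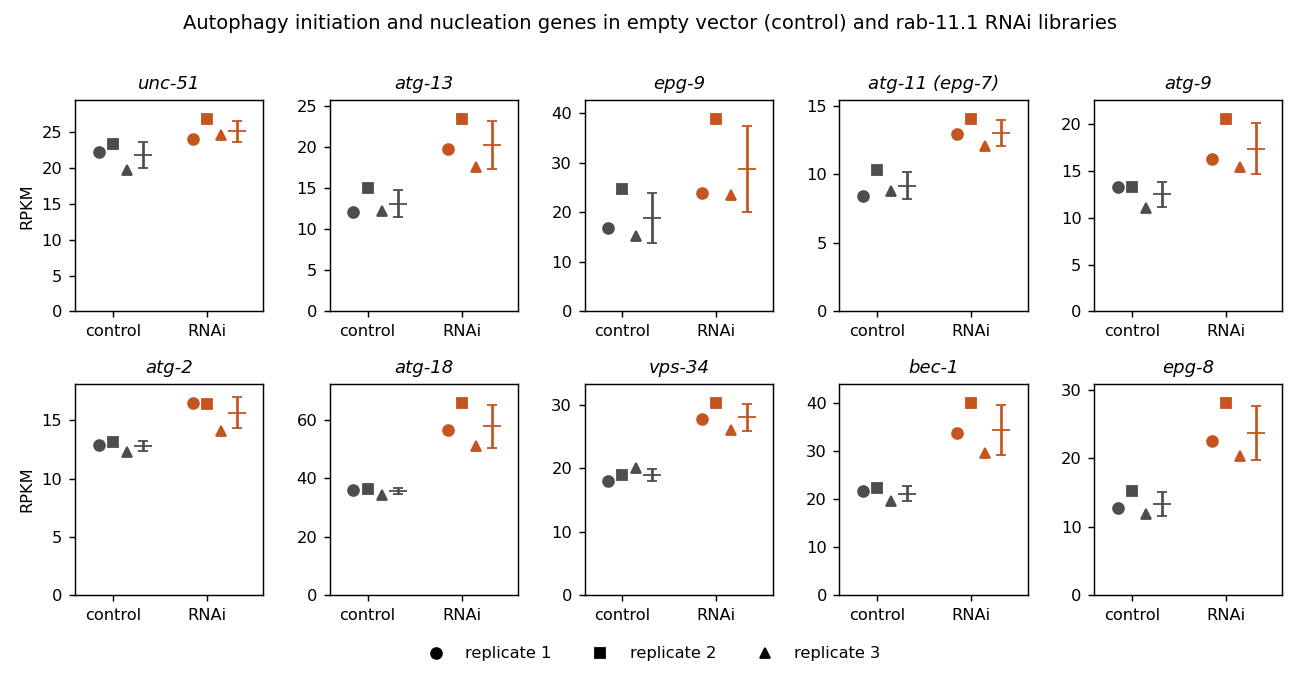
RPKM of the 9 genes found by name and of the row listed as atg-11, in each of 3 control (empty vector, grey) and 3 rab-11.1 RNAi libraries (orange); symbols mark the replicate number, and the bar beside them is the mean ± SD. Each axis starts at 0. In every panel but that of epg-9 the 3 orange points lie above the 3 grey ones.

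The VPS-34 complex makes PI3P at the site where an autophagosome forms. Its catalytic subunit vps-34, the class III phosphatidylinositol 3-kinase (WBGene00006932, WBcel235 chromosome I, 6028486 to 6033458, plus strand), stood at 18.1, 18.9 and 20 RPKM in the controls and at 27.8, 30.3 and 26.03 RPKM in the RNAi group. The groups were separated by 6.03 RPKM, more than the range within either. The mean rose 1.48-fold, from 19 ± 0.966 to 28.1 ± 2.16 RPKM (SD, n = 3), with a log2 fold change of 0.54 (SE 0.09, limma adjusted p = 0.0157). This gene rested on 1620 to 2110 reads per library. Its call held in all 11 alternative settings that did not leave out a single library, with adjusted p values of 0.0121 to 0.0458, and in 3 of the 6 fits that left out 1 library. It ended without control replicate 1, control replicate 3 or RNAi replicate 1, at an adjusted p of up to 0.0735.

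The gene bec-1 encodes the worm Beclin 1, the scaffold of the complex, which also binds the cell death regulator CED-9 (WBGene00000247, chromosome IV, 5661141 to 5664425, minus strand). It stood at 21.6, 22.4 and 19.5 RPKM in the controls and at 33.6, 40.0 and 29.7 RPKM in the RNAi group, so that every RNAi library was higher. From 21.1 ± 1.48 RPKM the mean rose to 34.4 ± 5.21 RPKM, 1.63-fold (log2 fold change of 0.67 with an SE of 0.12, limma adjusted p = 0.0225). The gene epg-8 encodes a coiled-coil protein that stands in for mammalian ATG14, the subunit that directs the complex to autophagy (WBGene00013695, chromosome I, 9931870 to 9934290, minus strand). Its values were 12.8, 15.3 and 11.9 RPKM in the controls and 22.5, 28.0 and 20.4 RPKM in the RNAi group. Of the 9 genes it had the largest difference, 1.78-fold, between 13.3 ± 1.75 and 23.6 ± 3.96 RPKM (log2 fold change of 0.78 with an SE of 0.14, limma adjusted p = 0.0245), and 5.7% of all features tested had a larger log2 fold change. Its exons overlap those of Y106G6A.4 on the opposite strand by 13 bases, and whether counting used the strand is not given. After median-of-ratios scaling bec-1 and epg-8 did not pass (adjusted p = 0.0531 for both), nor after quantile normalization (adjusted p = 0.0536 and 0.0592), while both kept positive log2 fold changes of 0.52 to 0.66. Both also ended without the 3 libraries named for vps-34, each left out in turn, at adjusted p values of up to 0.106 and 0.108.

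Among these 3 genes of the complex the ranges of each ratio between transcripts overlapped between the groups. The ratio of epg-8 to bec-1 in RPKM was 0.591, 0.682 and 0.610 in the control libraries and 0.669, 0.701 and 0.686 in the RNAi group, and the groups overlapped (exact two-sided permutation test, p = 0.2). That of bec-1 to vps-34 was 1.19, 1.18 and 0.975 against 1.21, 1.32 and 1.14, again overlapping (exact permutation p = 0.4). That of epg-8 to vps-34 was 0.706, 0.806 and 0.594 against 0.809, 0.924 and 0.782 (exact permutation p = 0.2). With 3 libraries in each group, 0.1 is the smallest p that permutation allows. Between libraries with the same replicate number all 3 ratios were higher in the RNAi group in all 3 pairs (exact two-sided paired permutation p = 0.25 for each, the smallest that 3 pairs allow).

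ATG-18 is a WIPI protein that binds PI3P and brings ATG-2 to the growing membrane. Its gene (WBGene00018294, chromosome V, 8629174 to 8631327, minus strand) stood at 35.9, 36.2 and 34.3 RPKM in the controls and at 56.4, 65.7 and 50.9 RPKM in the RNAi group. The control libraries had a coefficient of variation of 2.96%, and the gap of 14.7 RPKM to the lowest RNAi library was the widest among the 9 genes. The mean of 35.5 ± 1.05 RPKM rose to 57.7 ± 7.48 RPKM, 1.63-fold (log2 fold change of 0.68 with an SE of 0.10, limma adjusted p = 0.0126, the lowest of the 9). Its call held in the same 11 settings as that of vps-34 (adjusted p = 0.00581 to 0.0343) and without control replicate 2, RNAi replicate 2 or the library labelled RNAi replicate 3. It ended without any of the other 3 libraries, at an adjusted p of up to 0.0741.

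The transmembrane protein ATG-9 travels in vesicles and moves lipids between the leaflets of a membrane. Its gene (WBGene00020706, chromosome V, 349385 to 359658, plus strand) stood at 13.3, 13.3 and 11.01 RPKM in the controls and at 16.3, 20.6 and 15.4 RPKM in the RNAi group. The groups did not overlap, but the difference did not pass (log2 fold change 0.44, SE 0.14, 95% interval 0.12 to 0.76, limma adjusted p = 0.0959). ATG-2 is the lipid transfer protein that works with ATG-18 (WBGene00019748, chromosome X, 6806763 to 6817266, plus strand). The gene atg-2 stood at 12.9, 13.1 and 12.3 RPKM against 16.5, 16.4 and 14.1 RPKM, a difference that did not pass either (log2 fold change 0.27, SE 0.10, 95% interval 0.05 to 0.50, limma adjusted p = 0.128). The RNAi libraries of atg-2 were all above the control libraries, the library labelled replicate 3 by 0.97 RPKM only.

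Of the 3 ratios between transcripts here, both with atg-18 did not overlap between the groups. How often the ratios of other gene pairs separate in this way was not counted. The ratio of atg-18 to atg-9 in RPKM was 2.70, 2.73 and 3.11 in the control libraries and 3.46, 3.20 and 3.31 in the RNAi group, without overlap (exact two-sided permutation p = 0.1, the smallest that 3 against 3 libraries allow). That of atg-18 to atg-2 was 2.79, 2.76 and 2.78 against 3.42, 4.01 and 3.61, also without overlap (exact permutation p = 0.1). That of atg-2 to atg-9 was 0.969, 0.990 and 1.12 against 1.01, 0.798 and 0.916 and overlapped (exact permutation p = 0.3).

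UNC-51 is the protein kinase that starts autophagy and is also known for its part in the growth of axons, the origin of its name from uncoordinated movement. Its gene (WBGene00006786, chromosome V, 19995986 to 20004485, minus strand) stood at 22.3, 23.3 and 19.7 RPKM in the controls and at 24.0, 26.8 and 24.6 RPKM in the RNAi group. It differed least of the 9 genes, 1.15-fold, with a gap of 0.732 RPKM between the groups (log2 fold change 0.20, SE 0.09, 95% interval -0.02 to 0.42, limma adjusted p = 0.217). It passed in none of the 11 other settings and in none of the 6 fits without 1 library, and 35.5% of all features tested had a larger log2 fold change. These values rested on 1555 to 2026 reads per library.

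ATG-13, also called EPG-1, is the regulatory subunit that UNC-51 phosphorylates. Its gene (WBGene00017045, chromosome III, 8155947 to 8158190, minus strand) stood at 12.2, 15.1 and 12.3 RPKM in the controls and at 19.9, 23.4 and 17.6 RPKM in the RNAi group. Its mean of 13.2 ± 1.65 RPKM rose to 20.3 ± 2.95 RPKM, 1.54-fold (log2 fold change of 0.59 with an SE of 0.13, limma adjusted p = 0.0437). This was the call nearest to the threshold, and without 1 library it held only where control replicate 2 was left out (adjusted p = 0.0381). It ended in the other 5 such fits, at adjusted p values of up to 0.169. Its exons overlap D2007.1 on the opposite strand by 134 of 1483 bases. The ratio of atg-13 to unc-51 in RPKM was 0.546, 0.646 and 0.620 in the controls and 0.826, 0.874 and 0.715 in the RNAi group, without overlap (exact two-sided permutation p = 0.1, the smallest possible). Here too, no count over other gene pairs was made.

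The gene epg-9 encodes the worm ATG101, which binds and stabilizes ATG-13 (WBGene00022078, chromosome IV, 2601141 to 2607464, plus strand). It stood at 16.8, 24.6 and 15.2 RPKM in the controls and at 24.0, 38.8 and 23.4 RPKM in the RNAi group. Replicate 2 was high in both groups, at 154% and 164% of the mean of the other libraries of its group, and the 2 groups overlapped. The means were 18.9 ± 5.06 and 28.7 ± 8.71 RPKM (log2 fold change 0.57, SE 0.24, limma adjusted p = 0.192). The ratio of epg-9 to unc-51 was 0.755, 1.06 and 0.768 against 0.997, 1.45 and 0.952 and overlapped (exact two-sided permutation p = 0.3), and so did that of epg-9 to atg-13 (exact permutation p = 0.8). Between libraries with the same replicate number the log2 difference of epg-9 was 0.49, 0.63 and 0.59. With the replicate block the estimate stayed at 0.57 with an SE of 0.07, and the gene passed (adjusted p = 0.00617). The row listed as atg-11, the scaffold EPG-7 that links the kinase complex to the cargo receptor SQST-1 (WBGene00020334, chromosome X, 7334714 to 7340268, plus strand), stood at 8.44, 10.3 and 8.78 RPKM against 12.96, 14 and 12.1 RPKM. Its groups did not overlap, and its difference of 1.42-fold lay just outside the threshold (log2 fold change 0.46, SE 0.11, limma adjusted p = 0.0526, and 0.0192 with the replicate block).

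**Figure D2:**
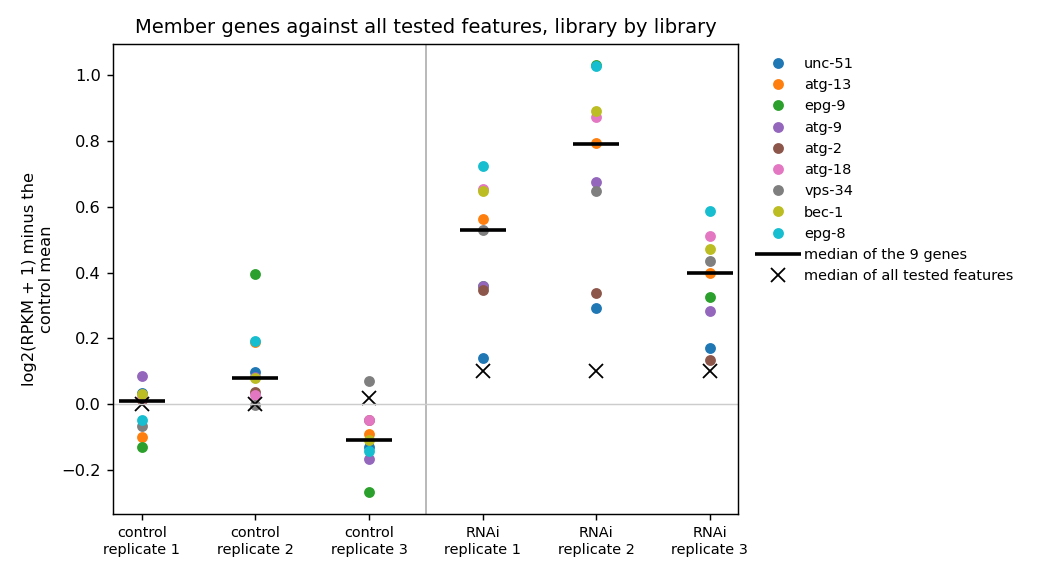
Log2(RPKM + 1) of each of the 9 genes in each library, minus its mean over the 3 control libraries; the black bar is the median of the 9 genes and the cross the median of all 13833 features tested. The median of the 9 genes was 0.53, 0.79 and 0.40 in RNAi replicates 1, 2 and 3, and the median of all tested features was 0.10 in each.

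Most of the 9 genes shared the library of their highest value within each group. How often other features did so was not counted. In the controls the 9 genes did not all move together, as vps-34 was highest in replicate 3, at 20 RPKM. Replicate 2 held the highest value of its group for 7 of the 9 genes in the controls and for 8 of the 9 in the RNAi group. It also had the lowest summed level of the germline markers in each group, at 482.9 and 368.1 RPKM. Between the groups these markers had a median log2 fold change of -0.36. Control replicate 2 was below RNAi replicates 1 and 3 in that germline sum (593.4 and 649.2 RPKM). It was also below them in the sum of the 9 genes (182.2 against 241.1 and 222.1 RPKM). Whether germline content or stage had a part in the levels of the 9 genes was not tested. The library labelled RNAi replicate 3, in which rab-11.1 itself was not low, held the lowest value of its group for 8 of the 9. Even there 8 of the 9 genes were above every control library, as were 41.8% of all features tested. The median of the 9 genes, as a log2 difference from the control mean, was 0.53, 0.79 and 0.40 in RNAi replicates 1, 2 and 3. In the control libraries it was 0.01, 0.08 and -0.11. Over all features tested the median was 0.10 in each of the RNAi libraries, so the difference of the 9 genes was larger than the shift of the whole table in each of them. All 9 genes were higher in the RNAi group in all 3 pairs of libraries with the same number, as were 40.6% of all features tested.

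The 9 genes can be ordered by their level per length. With the control atg-18 was highest at 35.5 RPKM, apart from the rest, followed by unc-51, bec-1, vps-34 and epg-9 at 21.8 to 18.9 RPKM and by epg-8, atg-13, atg-2 and atg-9 at 13.3 to 12.5 RPKM. Apart from the step below atg-18, each of these 9 genes overlapped with the next in the ranges of their 3 libraries. After RNAi atg-18 again stood apart at 57.7 RPKM, bec-1 came next at 34.4 RPKM, and unc-51 had moved down below epg-9 and vps-34, at 25.1 RPKM, with overlapping neighbours. The row listed as atg-11 was lowest in both groups. These levels depend on the transcript length the authors used, which was 97.3% to 106.7% of the annotated exon length for 8 of the 9 genes. For atg-9 the values allow 1386 bases or a multiple such as 2772 or 4158, against 3589 annotated bases, so its place in the order is the least sure and its 415 to 665 reads per library are lower bounds. As shares of the summed RPKM of the 9 genes, the UNC-51 complex made up 30.2% to 34.6% in the controls and 28.2% to 30.7% in the RNAi group, and the VPS-34 complex 31% to 32.9% and 33.9% to 34.8%. The sum itself went from 156.1 to 182.2 RPKM in the controls to 222.1 to 290.1 RPKM in the RNAi group.

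**Figure D3:**
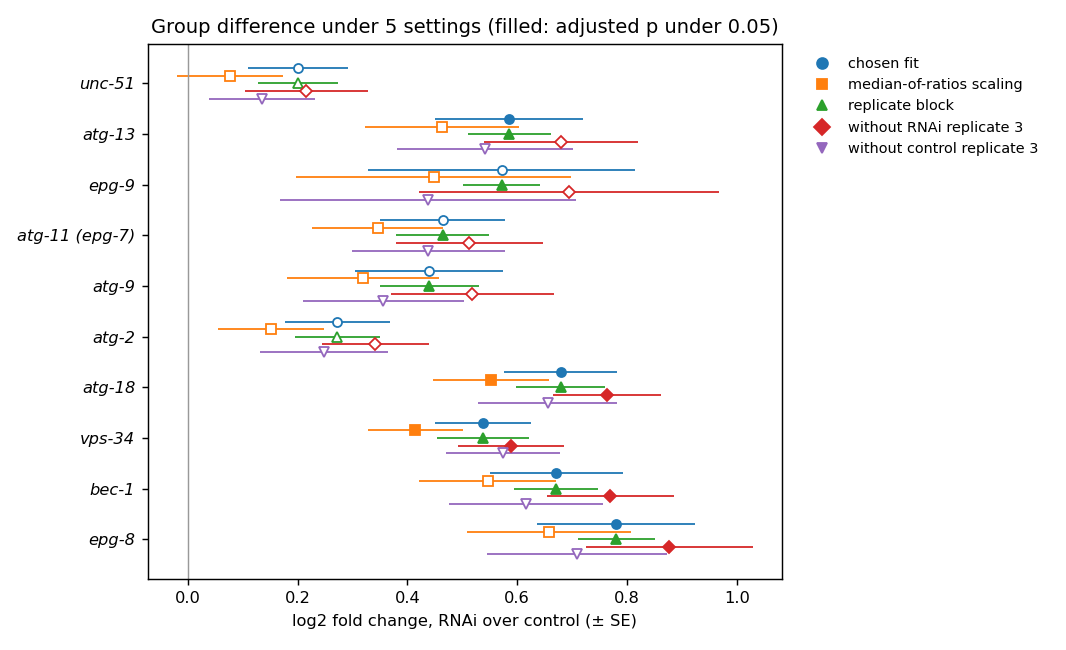
Log2 fold change (rab-11.1 RNAi over empty vector, ± SE) of each gene in the chosen fit, after median-of-ratios scaling, with the replicate block, without the library labelled RNAi replicate 3 and without control replicate 3; filled symbols have an adjusted p under 0.05. All estimates are above 0, and after median-of-ratios scaling atg-18 and vps-34 stay filled.

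Scaling set how many of the calls stood. Of all calls 88.1% were higher in the RNAi group. Median-of-ratios scaling moved the median log2 fold change of all features from 0.09 to -0.02 and the share of higher calls to 66.1%, and 2 of the 9 genes then passed, atg-18 (adjusted p = 0.0327) and vps-34 (adjusted p = 0.0407), against a background of 4% higher. Quantile normalization gave the same 2 genes (adjusted p = 0.0283 and 0.0458, background 3.79%). No gene turned its direction under either: the median of the 9 was 0.45 and 0.43, and unc-51 was lowest at 0.08 and 0.06. Relative to the median of all tested features, the log2 fold changes of the chosen fit ranged from 0.11 for unc-51 to 0.69 for epg-8.

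A further list of autophagy genes, called early and PI3P genes here although not all act at those steps, rose in part. Of 12 on the list 11 were tested, of which 3 rose and 0 fell (median log2 fold change 0.29), where 7.93% of all features rose, and sepa-1, a receptor for embryonic protein granules, was below the filter. The gene ppk-3, a kinase that turns PI3P into a further lipid signal, rose from 11.5, 12.2 and 11.13 RPKM to 16.3, 16.7 and 15.7 RPKM (1.40-fold, limma adjusted p = 0.0246). The gene epg-4, for a membrane protein of the endoplasmic reticulum that acts in autophagosome formation, rose from 11.02, 12.3 and 9.1 RPKM to 18.8, 18.5 and 15.2 RPKM (1.62-fold, adjusted p = 0.0341). The gene epg-6, for the other WIPI protein of the worm, rose 1.51-fold from 17.4 ± 1.19 to 26.2 ± 4.41 RPKM (adjusted p = 0.0425), beside 1.63-fold for its relative atg-18. All 3 calls ended without the library labelled RNAi replicate 3 (adjusted p = 0.0601, 0.0502 and 0.0679) and without each other library in turn except control replicate 2, where ppk-3 and epg-4 held. Their highest adjusted p values were 0.115, 0.12 and 0.166. Under the replicate block 5 of the 11 rose, where 16.5% of all features did, and the 2 added were epg-2 (adjusted p = 0.045) and epg-5 (adjusted p = 0.0359). The gene vps-15, for the regulatory subunit that holds VPS-34, stood at 14.4, 14.8 and 15.2 RPKM against 16.9, 17.7 and 16.7 RPKM. The groups did not overlap, but the difference of 1.16-fold did not pass (adjusted p = 0.162). The ER protein gene epg-3 stood at 45.3 ± 1.67 and 43.5 ± 4.65 RPKM (log2 fold change -0.06, 95% interval -0.29 to 0.17, adjusted p = 0.729).

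The genes that act after initiation, for the conjugation of ubiquitin-like LGG proteins to the membrane and for the receptor SQST-1, were tested in full. Of 12, 6 rose and 0 fell (median log2 fold change 0.44), where 7.93% of all features tested rose and 1.07% fell. Past the threshold with the smallest adjusted p were sqst-1 (1.99), atg-3 (0.42), lgg-1 (1.22) and atg-16.2 (0.67), with log2 fold changes in parentheses. The call of sqst-1 held without each library in turn (highest adjusted p = 0.0195), and those of atg-3, lgg-1 and atg-16.2 ended without control replicate 1, control replicate 3 or RNAi replicate 1 (highest adjusted p = 0.0827, 0.109 and 0.117). The call of atg-3 also ended without the library labelled RNAi replicate 3 (adjusted p = 0.0591), and that of atg-16.2 without RNAi replicate 2. The other 2 that rose were lgg-2 (log2 fold change 0.84, adjusted p = 0.0313) and atg-4.1 (log2 fold change 0.50, adjusted p = 0.031). Both calls ended without control replicate 1, control replicate 3 or RNAi replicate 1, and also that of lgg-2 without the library labelled RNAi replicate 3 and that of atg-4.1 without RNAi replicate 2 (highest adjusted p = 0.124 and 0.133). The genes sqst-1, lgg-1 and lgg-2 had larger log2 fold changes than any of the 9 initiation and nucleation genes, whose highest was 0.78. Of 13 upstream regulators, 1 rose and 0 fell, a count near the 7.93% of all features that rose. It was raga-1 of the TOR nutrient pathway, from 47.3 ± 0.28 to 60.7 ± 2.67 RPKM (log2 fold change 0.35, adjusted p = 0.0263). The call of raga-1 ended without any 1 of the 6 libraries (highest adjusted p = 0.121). Their median log2 fold change was 0.09, equal to that of all features tested. The gene hlh-30, for the worm TFEB factor that switches on autophagy genes, stood at 42.2 ± 2.06 and 46.3 ± 3.36 RPKM (adjusted p = 0.372), and the TOR kinase gene let-363 at 20.9 ± 0.698 and 20.5 ± 1.75 RPKM (adjusted p = 0.861).

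**Figure D4:**
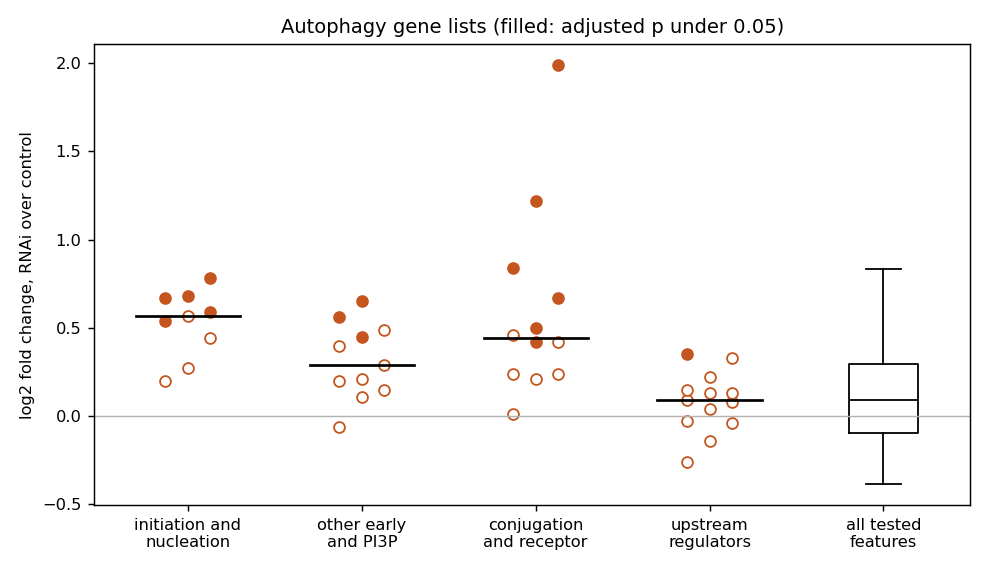
Log2 fold change (rab-11.1 RNAi over empty vector) of each tested gene in 4 autophagy lists, filled where the adjusted p was under 0.05, with the median of the list as a bar; the box on the right shows the median, quartiles and the 5th and 95th percentiles of all 13833 features tested. The medians were 0.57, 0.29, 0.44 and 0.09, and that of all features 0.09.

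The genes whose pattern over the 6 libraries was nearest to the mean pattern of the 9 were F56C11.6, atg-4.1 and ced-10, at Euclidean distances of 0.0686, 0.0828 and 0.0841 between log2(RPKM + 1) profiles centred on their means, among 9651 protein-coding genes at a mean of 5 RPKM or more. The protease gene atg-4.1, which prepares LGG-1 for conjugation, stood at 21.1, 23.5 and 20.9 RPKM against 30.6, 35.0 and 28.3 RPKM. F56C11.6 stood at 14.6, 15.9 and 14.2 RPKM against 21.0, 24.5 and 19.4 RPKM. The Rac GTPase gene ced-10, known from the engulfment of dying cells, stood at 37.2, 39.9 and 35.1 RPKM against 49.8, 59.8 and 47.4 RPKM. All 3 were lowest in control replicate 3 and highest in RNAi replicate 2. Of the 9 genes themselves atg-13 lay nearest to the mean pattern, at 0.133, and epg-9 farthest, at 0.467.

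Some marker genes of tissues differed between the groups as well, where 7.93% of all features tested rose and 1.07% fell. The single calls among neuron and epidermis markers lay near that share of higher features. Their median log2 fold changes were 0.28 and 0.29, against 0.09 over all features tested. Of the neuron markers 10 of 10 were above 0, and of the epidermis markers 7 of 8, as were 8667 of the 13833 features. For germline and body wall muscle markers the medians were -0.36 and -0.23, with 1 of 12 and 1 of 10 above 0. In whole worms fewer cells of a type and less RNA per cell cannot be told apart. Of 10 neuron markers snb-1 rose (adjusted p = 0.039) and the others did not pass. Their summed level was 258.8 to 302.1 RPKM in the controls and 356.8 to 507.7 RPKM in the RNAi group. Without snb-1 the sums were 132.1 to 174.8 and 170.4 to 213.7 RPKM and overlapped. Of 8 epidermis markers elt-3 rose (adjusted p = 0.0385), and the sums overlapped at 862.1 to 1096 and 943.5 to 1231 RPKM. Of 10 body wall muscle markers unc-52 fell (adjusted p = 0.0404), with sums of 4620 to 4815 and 3946 to 4331 RPKM. Of 6 yolk protein genes, made in the adult intestine, 3 fell (vit-3, vit-4, vit-5), with sums of 252.1 to 1190 and 171.2 to 268.1 RPKM. None of the 11 intestine, 5 pharynx, 12 germline and 10 sperm markers tested passed without the replicate block. Their sums overlapped for intestine (5606 to 6307 and 4587 to 5806 RPKM), germline (482.9 to 842.1 and 368.1 to 649.2 RPKM) and sperm (116.1 to 276.8 and 93.54 to 211.3 RPKM), and did not for pharynx (171.2 to 199.7 and 156.5 to 168.4 RPKM). With the replicate block 7 of the 12 germline markers fell (glh-1, pgl-1, pgl-3, gld-1, mex-5, htp-3 and cgh-1, adjusted p = 0.0157 to 0.0343), where 4.47% of all features fell. With it 2 of the 10 sperm markers (msp-19 and spe-41), 1 of the 5 pharynx markers (myo-2), 2 of the 10 muscle markers (unc-54 and unc-52) and 4 of the 6 yolk protein genes (vit-6 added) also fell. The block further gave 3 of the 10 neuron markers (snb-1, unc-64 and egl-3) and 3 of the 8 epidermis markers (elt-3, che-14 and wrt-10) as higher. Of the 11 intestine markers it gave 1 (elt-2) as higher. Under the block 16.5% of all features rose. The calls of snb-1, elt-3, unc-52 and vit-5 ended without the library labelled RNAi replicate 3 (adjusted p = 0.0578, 0.0811, 0.09 and 0.0676), and each call of a marker made without the block ended without control replicate 1, control replicate 3 or RNAi replicate 1. No marker gene was at 0 in every library. The part of these differences in the levels of the autophagy genes was not tested.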

How the data were processed

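Polyadenylated RNA of whole worms was sequenced in 6 libraries, 3 per group. The authors deposited RPKM values per feature from paired reads, per the file headers. The submitters' processing notes name the genome build WBcel235. The aligner, the counter, the annotation release and whether strand was used: not given in the sources used here. Gene identities and coordinates come from Ensembl release 115 of that build. A feature was tested if 3 or more libraries reached 1 RPKM. The test was limma 3.58.1 (R 4.3.3) on log2 of RPKM plus a pseudocount of 1, which understates changes of low genes. Group was its one term, eBayes used a trend and was robust, p-values were two-sided, and Benjamini-Hochberg adjustment ran over all 13833 features at a threshold of 0.05. Reads were solved from the steps between values, within 0.001 reads. The fit was checked on simulated data of 3 against 3 libraries. It called 17 of 100 genes with a true absolute log2 fold change of 0.5, and 64 of 100 at 1, beside 5 false calls. The simulation changed 200 of 13640 genes and gave each library independent noise. The real data had more calls and shared deviations between libraries, so these shares may not carry over to them. A gene that did not pass may thus still differ.

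The genes, lists and named genes were chosen with earlier results of these data known. Named were the 9 genes and up to 4 passing genes per other autophagy list. The genes rab-11.2, vps-15, epg-2, epg-3, epg-5, lgg-2, hlh-30, let-363 and the passing markers were named after their values were seen. Libraries with the same number deviated together from their group means (correlations across genes of 0.40, 0.62 and 0.35). This is the ground for the replicate block and the comparisons of same-number pairs. It comes from these same data, and the chosen fit did not use the pairs. Control replicate 1 and RNAi replicate 3 correlated more (0.46) than either did with the library of its own number, so the pairing is not sure. Replicates were no copies, with a chi-square per degree of freedom of 10.0 to 55.5 between reads. No sequences are shown.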

Additional observations from a re-analysis of the deposited data

How the results depend on the processing

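All 153 log2 fold changes of the 9 genes under the 17 alternatives were above 0. Of these, 125 kept their side of the threshold, 25 lost a call and 3 gained one. The count of 5 genes fell to 2 with median-of-ratios scaling and with quantile normalization, and ranged from 0 to 5 when 1 library was left out. It was 4 to 7 in the other alternatives. Without the library labelled RNAi replicate 3 it was 4, and 1 there with median-of-ratios scaling or quantile normalization. Over all features 1245 passed (1097 higher, 148 lower), 837 (553 higher, 284 lower) with median-of-ratios scaling, 773 (524 higher, 249 lower) with quantile normalization and 284 to 1063 when 1 library was left out. The replicate block gave 2906, and 2586 together with median-of-ratios scaling, an alternative chosen after seeing the data in which 6 of the 9 genes passed. The block ended no call among the 9 genes. Of the other lists, the 3 calls among early and PI3P genes and the 1 among regulators went to 0 with both scalings, and the 6 among conjugation genes to 2. The 9 genes rested on 415 to 2917 recovered reads per library. The 415 reads, of atg-9 in control replicate 3, are a lower bound. The lowest number among the other genes was 471, of epg-8 in the same library.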
